A study of Mus musculus with 6 samples.

Results

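Immediate early genes are genes that cells switch on within minutes of a stimulus, using transcription factors that are already present and need only be phosphorylated. Most of them encode transcription factors. FOS and JUN proteins pair through leucine zippers to form the dimer AP-1, EGR proteins bind DNA through zinc fingers, and the NR4A proteins are orphan nuclear receptors. In brown adipose tissue (BAT), adrenergic signalling through cyclic AMP is known to induce several of them, and macrophages, endothelial cells and muscle fibres express them as well. They are also known to respond to handling and stress of a tissue.

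The 10 immediate early genes described here were taken by symbol from the 47729 genes of the deposited tables, and each was found exactly 1 time. They are the AP-1 subunits *Fos*, *Fosb*, *Jun* and *Junb*, the related stress-response repressor *Atf3*, the zinc finger genes *Egr1* and *Egr2*, the nuclear receptors *Nr4a1* and *Nr4a3*, and *Ier2*, which encodes a small nuclear protein. Gene expression was measured by RNA sequencing after removal of ribosomal RNA in interscapular BAT of 6 wild type male C57BL/6J mice. The HFD group were 3 mice fed a 45% high-fat diet and the LFD group were 3 mice fed standard rodent diet, the low-fat diet, both from 6 to 10 weeks of age. Per the study's methods, the sequenced mice were chosen from larger groups to span the range of fat mass, and each library is 1 mouse.

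The libraries held 17156991 to 21603487 rounded read counts, of which the 10 genes took 0.00535% to 0.0494%. All 12 genes of a list of brown adipocyte markers were detected in all 6 mice, with a summed level of 3626 to 13544 TPM. The list also holds *Pparg*, *Adipoq*, *Fabp4* and *Plin1*, which are genes of adipocytes in general. *Fabp4*, with 2624 to 8136 TPM, took much of this sum, which does not stand for each marker. LFD replicate 2 had a sum of 10897 TPM with 11.03 TPM of *Ucp1*. In HFD-fed mice 2 of the 12 lay higher without overlap. A list of 12 skeletal muscle markers summed to 13.4 to 334 TPM in HFD-fed and to 1858 to 12465 TPM in LFD-fed mice. LFD replicate 1 stood apart for the immediate early genes. It was the lowest of the 6 mice for 8 of the 10 genes, where it was the lowest for 31.8% of all genes tested. This mouse also had the lowest summed level of 12 macrophage markers (594 TPM, against 1864 to 4373 TPM in the other mice) and of 12 T and NK cell markers (1.99 TPM, against 13.1 to 48.2 TPM). In bulk tissue, fewer cells of a type and less RNA per cell cannot be told apart.

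The immediate early genes did not behave as a block. Levels of *Atf3*, *Fos*, *Egr2* and *Jun* were higher in each HFD-fed mouse than in any LFD-fed mouse, whereas those of *Fosb*, *Junb*, *Egr1*, *Ier2*, *Nr4a1* and *Nr4a3* overlapped between the diets in normalised read counts (CPM, explained with *Atf3*). In TPM, which RSEM scales by gene length to a fixed total, only *Atf3* and *Egr2* lay higher without overlap, beside 1.65% of all genes tested. At the thresholds of the study (adjusted p below 0.01, log2 fold beyond 1.5 in either direction), the quasi-likelihood test of edgeR called 0 of the 10 genes and 0 (0%) of 17668 genes tested. At an unadjusted p under 0.05 the same test had 4 of the 10 genes higher and 0 lower in HFD-fed mice, where 3.86% of all genes were higher and 6.62% lower. DESeq2 with default settings called 2 of the 10, *Atf3* and *Egr2*, both higher, where it called 2.06% of the 19965 genes with an adjusted p and 0.531% as higher. The 4 genes that did not overlap are to be read against 6.72% of all genes tested that lay higher without overlap. The median log2 fold change (HFD over LFD, below called log2 fold) of the 10 genes was 0.60, beside -0.05 over all genes tested. It was 0.28 without HFD replicate 3, 0.34 without LFD replicate 1 and 1.03 without LFD replicate 3.

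The promoters shown are those of the 4 genes whose diets did not overlap in CPM, to set their sequences side by side. Each sequence is from RefSeq on GRCm38.p6, from 250 bases before to 50 bases after the transcription start, on the strand of the gene. Capitals mark the CRE core TGACG on either strand, the binding core of CREB and ATF factors, and the TATA box TATAAA on the gene strand.
Fos, chr12:85473640-85473939, plus strand: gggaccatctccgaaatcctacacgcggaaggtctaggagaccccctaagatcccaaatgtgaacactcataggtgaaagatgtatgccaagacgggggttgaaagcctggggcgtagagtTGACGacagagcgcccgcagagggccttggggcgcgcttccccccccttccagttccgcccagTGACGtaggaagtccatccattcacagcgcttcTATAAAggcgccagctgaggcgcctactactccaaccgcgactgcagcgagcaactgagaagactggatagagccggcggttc
Atf3, chr1:191183284-191183583, minus strand: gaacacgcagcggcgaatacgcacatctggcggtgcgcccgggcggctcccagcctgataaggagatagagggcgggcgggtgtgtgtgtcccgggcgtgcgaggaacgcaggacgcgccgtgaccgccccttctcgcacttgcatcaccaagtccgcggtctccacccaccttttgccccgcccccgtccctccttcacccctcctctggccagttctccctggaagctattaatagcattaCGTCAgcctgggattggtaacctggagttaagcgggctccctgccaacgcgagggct
Egr2, chr10:67535249-67535548, plus strand: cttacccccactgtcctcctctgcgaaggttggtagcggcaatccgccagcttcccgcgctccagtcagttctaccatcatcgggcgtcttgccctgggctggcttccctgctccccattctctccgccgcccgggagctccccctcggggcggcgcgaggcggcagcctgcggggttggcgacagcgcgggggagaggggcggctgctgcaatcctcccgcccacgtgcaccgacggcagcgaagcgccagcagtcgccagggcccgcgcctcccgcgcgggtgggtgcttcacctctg
Jun, chr4:95052173-95052472, minus strand: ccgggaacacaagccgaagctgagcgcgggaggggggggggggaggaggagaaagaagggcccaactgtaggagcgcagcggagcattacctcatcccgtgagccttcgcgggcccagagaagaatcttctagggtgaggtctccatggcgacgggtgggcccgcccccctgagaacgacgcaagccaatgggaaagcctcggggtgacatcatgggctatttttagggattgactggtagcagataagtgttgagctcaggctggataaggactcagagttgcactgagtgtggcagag
*Fos* held the CRE core at positions -129 and -66 and a TATA box at position -33, counted to the first base of the match from the start. *Atf3* held 1 CRE core, at position -7, and its RefSeq start lies 34706 bases from the 5′ end of the GENCODE gene. The windows of *Egr2* and *Jun* held none of the letters searched. Promoters of this length were at hand for 8 of the 10 genes, and 6 of these 8 held the CRE core, beside 20.8% of all 32851 promoters. The full CRE (TGACGTCA, both strands, of which the core is a part), the AP-1 site (TGANTCA, both strands) and the CArG box that serum response factor binds were found in 0 of the 8, and in 1.79%, 7.81% and 1.63% of all promoters. An EGR site (GCGNGGGCG, both strands) stood in the promoters of *Fosb* and *Nr4a1* and in 5.55% of all. The letters TATAAA stood in those of *Fos* and *Junb* and in 8.32% of all. In *Junb* they began at position 1, at the start itself, and its RefSeq start lies 30 bases from the 5′ end of the GENCODE gene. The median GC content was 65.0% in the 8 promoters and 52.7% in all, and short motifs rich in G and C depend on it. A match of letters is a description and not a site shown to be used.

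*Atf3* differed most among the 10 genes. It encodes a bZIP protein of the ATF/CREB family that acts mainly as a repressor and accumulates in cell stress. The gene (ENSMUSG00000026628) lies on chromosome 1 from 191170296 to 191218039, minus strand (GRCm38, GENCODE M21). HFD replicates 1, 2 and 3 had 33.6, 61.5 and 90.2 normalised CPM (read counts divided by the library size, scaled by TMM), and LFD replicates 1, 2 and 3 had 2.11, 11.04 and 11.9 CPM. The lowest HFD-fed mouse lay well above the highest LFD-fed mouse in CPM. In TPM the nearest mice were closer, with 19.5 TPM (RSEM interval 16.9 to 21.6 TPM) in HFD replicate 1 and 14.4 TPM (11.4 to 16.9 TPM) in LFD replicate 3. The means were 61.8 ± 28.3 CPM (SD, n = 3) and 8.34 ± 5.41 CPM (SD, n = 3), and the log2 fold change was 2.88 (SE, standard error, 0.69; unadjusted p = 0.00443, edgeR adjusted p = 0.215). The 95% interval of the log2 fold change ran from 1.24 to 4.52. DESeq2 gave 2.91 (adjusted p = 9.23e-04). Without LFD replicate 1, the mouse with the lowest value, edgeR gave 2.42 (adjusted p = 0.174).

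*Fos*, the defining subunit of AP-1 (ENSMUSG00000021250, chromosome 12 from 85473890 to 85477273, plus strand), had 29.5, 42.8 and 67.5 CPM in HFD replicates 1, 2 and 3 and 4.15, 13.6 and 17.6 CPM in LFD replicates 1, 2 and 3. The diets did not overlap in CPM. The means were 46.6 ± 19.3 and 11.8 ± 6.91 CPM (SD, n = 3 each), with a log2 fold of 1.98 (SE 0.57, edgeR unadjusted p = 0.0107, adjusted p = 0.296). DESeq2 gave an adjusted p of 0.0223 for it. In TPM the diets did overlap. HFD replicate 1 had 17.6 TPM, with a credibility interval from RSEM of 15.7 to 19.4 TPM, and LFD replicate 3 had 22.7 TPM (19.3 to 25.2 TPM).

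*Egr2* encodes a zinc finger transcription factor known from Schwann cells and from activated macrophages and T cells (ENSMUSG00000037868, chromosome 10 from 67535475 to 67542188, plus strand). HFD replicates 1, 2 and 3 had 7.56, 7.17 and 7.40 CPM, and LFD replicates 1, 2 and 3 had 1.34, 3.43 and 1.95 CPM. The HFD-fed mice were nearly alike in CPM and lay above the LFD-fed mice. In TPM they had 3.83, 5.34 and 4.98, still above the LFD-fed mice, though the RSEM interval of HFD replicate 1 (2.98 to 5.67 TPM) overlapped that of LFD replicate 2 (2.05 to 4.62 TPM). The means were 7.38 ± 0.199 and 2.24 ± 1.07 CPM (SD, n = 3 each), a log2 fold of 1.71 (SE 0.41, edgeR unadjusted p = 0.00447, adjusted p = 0.215). DESeq2 gave 1.73 (adjusted p = 0.00311). The LFD values rest on 21 to 72 reads.

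*Jun*, the partner of FOS in AP-1 (ENSMUSG00000052684, chromosome 4 from 95049034 to 95052222, minus strand), had 88.3, 101 and 133 CPM in HFD replicates 1, 2 and 3 and 33.3, 53.8 and 78.5 CPM in LFD replicates 1, 2 and 3. The gap between HFD replicate 1 and LFD replicate 3 was small, and the diets overlapped in TPM and in CPM without TMM factors. HFD replicate 1 held 1553 reads of *Jun* in a library of 21603487 counts. LFD replicate 3 held 1609 reads in a library of 17156991 counts. Mitochondrially encoded genes took 22.7% of the counts in HFD replicate 1 and 3.87% in LFD replicate 3. The TMM factors of these mice were 0.81 and 1.20. The part of this in the difference between the scales was not tested. The means were 107 ± 22.8 and 55.2 ± 22.7 CPM (SD, n = 3 each), a log2 fold of 0.96 (SE 0.35, edgeR unadjusted p = 0.0310, adjusted p = 0.413). *Jun* overlaps the antisense gene *Junos*, which had 7 to 49 reads beside 521 to 3102 of *Jun*. The exact two-sided permutation test on log2 CPM gave p = 0.1 for each of *Atf3*, *Fos*, *Egr2* and *Jun*, the smallest value that 3 mice against 3 can reach.

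**Figure D1:**
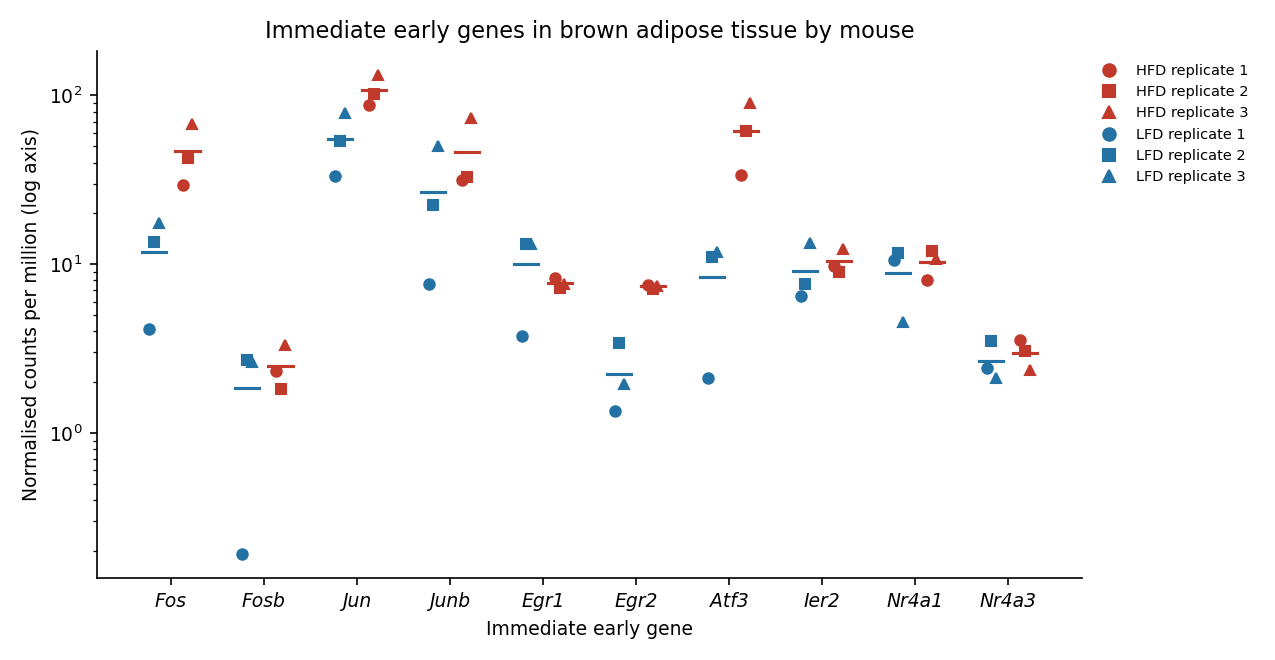
Normalised CPM (log axis) of the 10 immediate early genes in each of the 6 mice, with symbols for the replicate number, colours for the diet and bars for the mean of 3 mice. *Fos*, *Jun*, *Egr2* and *Atf3* do not overlap between the diets in CPM, while in TPM *Fos* and *Jun* do, and LFD replicate 1 is the lowest mouse for 8 of the 10 genes.

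For the other AP-1 genes among the 10, the diets overlapped. *Junb*, an AP-1 subunit that often restrains JUN (ENSMUSG00000052837, chromosome 8 from 84974484 to 84978718, minus strand), had 31.6, 32.7 and 73.7 CPM in HFD replicates 1, 2 and 3 and 7.66, 22.6 and 50.1 CPM in LFD replicates 1, 2 and 3. Here LFD replicate 3 lay above 2 of the HFD-fed mice. The means were 46.0 ± 24.0 and 26.8 ± 21.6 CPM (SD, n = 3 each) and the log2 fold change was 0.78 (SE 0.68, edgeR unadjusted p = 0.289, adjusted p = 0.788), with a 95% interval from -0.83 to 2.39. *Prdx2* on the opposite strand overlaps *Junb* and had 1899 to 2476 reads in the 6 mice. Reads from a shared stretch cannot be told apart where counting does not use the strand. The posterior SD that RSEM gave for the count of *Junb* was 0 in each of the 6 mice, and a part of *Prdx2* in this count was not tested. *Fosb*, a FOS paralogue known for its slowly decaying variant in the brain (ENSMUSG00000003545, chromosome 7 from 19302696 to 19310051, minus strand), had 2.33, 1.82 and 3.29 CPM in HFD replicates 1, 2 and 3 and 0.192, 2.71 and 2.64 CPM in LFD replicates 1, 2 and 3. LFD replicate 1 held only 3 reads of it, and the other mice held 38 to 77 reads and overlapped. Its log2 fold of 0.41 (SE 0.81, edgeR unadjusted p = 0.625, adjusted p = 0.928) became -0.11 without LFD replicate 1.

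*Egr1*, the best known zinc finger gene of the class (ENSMUSG00000038418, chromosome 18 from 34859823 to 34864984, plus strand), was the 1 gene of the 10 with a log2 fold change below 0. HFD replicates 1, 2 and 3 had 8.24, 7.26 and 7.62 CPM, and LFD replicates 1, 2 and 3 had 3.77, 13.1 and 13.2 CPM. Thus 2 LFD-fed mice lay above all HFD-fed mice and LFD replicate 1 lay below them. The log2 fold change was -0.38 (SE 0.48, edgeR unadjusted p = 0.452, adjusted p = 0.869), with a 95% interval from -1.52 to 0.76, and it was -0.77 (adjusted p = 0.237) without LFD replicate 1, -0.15 without LFD replicate 2 and -0.13 without LFD replicate 3.

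For the nuclear receptors and *Ier2*, the ranges of the diets overlapped. *Nr4a1*, also called Nur77 and known to follow adrenergic stimulation of brown fat (ENSMUSG00000023034, chromosome 15 from 101254269 to 101274795, plus strand), had 8.07, 12.04 and 10.7 CPM in HFD replicates 1, 2 and 3 and 10.6, 11.6 and 4.54 CPM in LFD replicates 1, 2 and 3. LFD replicate 3, not LFD replicate 1, was its lowest mouse. The log2 fold change was 0.21 (SE 0.40, edgeR adjusted p = 0.927, 95% interval from -0.75 to 1.16). *Nr4a3* (ENSMUSG00000028341, chromosome 4 from 48045153 to 48086447, plus strand) had 3.53, 3.06 and 2.35 CPM in HFD replicates 1, 2 and 3 and 2.43, 3.52 and 2.10 CPM in LFD replicates 1, 2 and 3. The log2 fold change was 0.15 (SE 0.37, edgeR adjusted p = 0.946, 95% interval from -0.72 to 1.02). *Ier2* (ENSMUSG00000053560, chromosome 8 from 84661331 to 84662852, minus strand) had 9.78, 8.98 and 12.4 CPM in HFD replicates 1, 2 and 3 and 6.45, 7.66 and 13.4 CPM in LFD replicates 1, 2 and 3. Its log2 fold change was 0.18 (SE 0.35, edgeR adjusted p = 0.927, 95% interval from -0.65 to 1.01). The intervals of these 3 genes reach 1.01 to 1.16 on the log2 scale, so a missing call does not show that the diets were alike.

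The mice carry replicate numbers from 1 to 3 in both diets, and same-numbered mice deviated together (correlations across genes of 0.229 to 0.522 in the 3 pairs). No source says that same-numbered mice were matched. The pairing was taken from these correlations in the same data, so the SEs and p-values of the paired fit hold only if it is real. Within these pairs, all 3 differences were above 0 for *Atf3*, *Fos*, *Egr2*, *Jun* and *Junb*, and 21.1% of all genes tested did the same. Blocking on this number, edgeR called 0 of the 10 genes at the thresholds of the study, and *Atf3* had a log2 fold of 3.09 (SE 0.35, adjusted p = 0.0403), where 1.04% of all genes had an adjusted p under 0.05. In this paired fit *Fos* had 2.12 (SE 0.29, adjusted p = 0.0555), *Jun* 1.02 (SE 0.20, adjusted p = 0.104), *Egr2* 1.80 (SE 0.37, adjusted p = 0.112) and *Junb* 1.02 (SE 0.36, adjusted p = 0.252), all by edgeR. At an unadjusted p under 0.05, the block had 5 of the 10 genes higher and 0 lower, where 8.75% of all genes were higher and 1548 of 17668 lower.

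**Figure D2:**
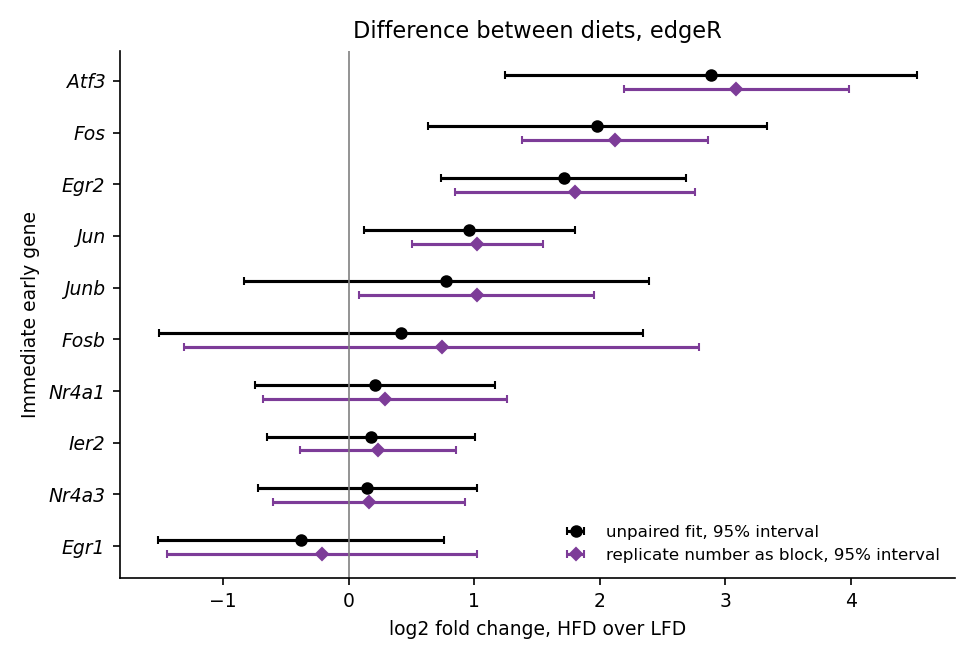
Log2 fold change, HFD over LFD, of the 10 immediate early genes by edgeR with 95% intervals, in the unpaired fit (circles) and with the replicate number as a block (diamonds). The unpaired intervals of *Atf3*, *Fos*, *Egr2* and *Jun* lie above 0, and those of the other 6 genes include 0.

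The spread among mice fed alike differed between the diets. The SD of log2 CPM over 3 mice had a median over the 10 genes of 0.88 in LFD-fed and 0.30 in HFD-fed mice, beside 0.55 and 0.32 over all genes tested. In all 10 genes the SD was larger in LFD-fed mice, as it was in 77.2% of all genes. It ranged from 0.37 for *Nr4a3* to 1.87 for *Fosb* in LFD-fed mice, and from 0.038 for *Egr2* to 0.72 for *Atf3* in HFD-fed mice. On the log2(TPM + 1) scale the medians were 0.97 in LFD-fed and 0.52 in HFD-fed mice. HFD replicate 3 was the highest of all mice for *Fos*, *Fosb*, *Jun*, *Junb* and *Atf3* in log2 CPM, and LFD replicate 3 for *Egr1* and *Ier2*.

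The ratio of 2 genes within a library does not depend on how libraries are scaled. Of the 45 pairs that the 10 genes form, 21 had read count ratios that did not overlap between the diets, where 18.5% of all pairs of genes tested did not. The pairs share genes and are not independent, and the ratios named here were chosen after their values were seen. *Atf3* was higher relative to 8 of the 9 other genes in every HFD-fed mouse, with *Egr2* as the exception, and *Egr1* was lower relative to 6 of the 9. The ratio of *Egr2* to *Egr1* was 0.917, 0.987 and 0.972 in HFD replicates 1, 2 and 3 and 0.356, 0.262 and 0.148 in LFD replicates 1, 2 and 3, a mean log2 difference of 1.99. The HFD-fed mice thus had nearly equal reads of both EGR genes, and each LFD-fed mouse had an excess of *Egr1* reads. The ratio of *Atf3* to *Egr1* was 4.08, 8.46 and 11.8 in HFD-fed and 0.559, 0.844 and 0.897 in LFD-fed mice, in the order of the replicate numbers, a mean log2 difference of 3.30. LFD replicate 1, which was low for both genes, lay with its diet in this ratio.

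Within AP-1 the ratios were less uniform. The ratio of *Fos* to *Jun* was 0.334, 0.422 and 0.509 in HFD replicates 1, 2 and 3 and 0.125, 0.252 and 0.224 in LFD replicates 1, 2 and 3, a mean log2 difference of 1.11 with no overlap. *Atf3* was also higher relative to *Fos*, with ratios of 1.14, 1.44 and 1.34 in HFD-fed and 0.508, 0.814 and 0.673 in LFD-fed mice. The ratio of *Junb* to *Jun* was 0.357, 0.322 and 0.555 in HFD-fed and 0.230, 0.419 and 0.638 in LFD-fed mice, so that the diets overlapped, and the mean log2 ratio differed by 0.016 between the diets. An exact two-sided permutation test of 3 mice against 3 cannot go below p = 0.1 for any ratio.

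**Figure D3:**
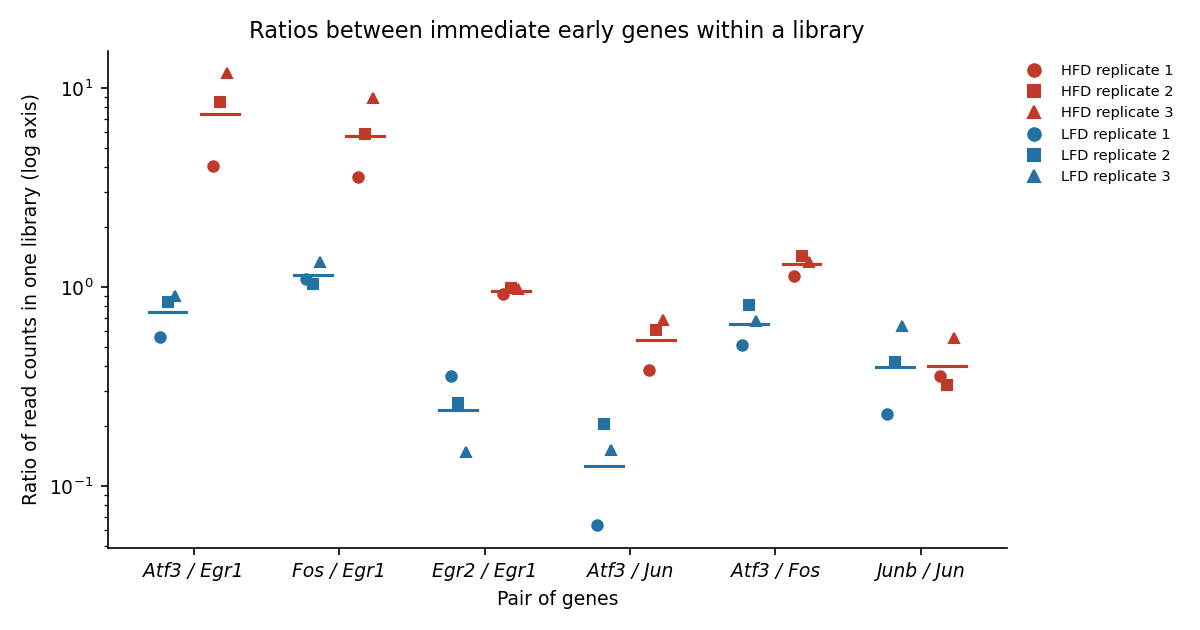
Ratios of read counts between 6 pairs of immediate early genes within a library (log axis) in each mouse, with bars for the geometric mean of 3 mice. The first 5 ratios do not overlap between the diets, and *Junb* to *Jun* overlaps.

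Per transcript length, *Jun*, *Atf3*, *Junb* and *Fos* were the most abundant of the 10 genes, with means over the 6 mice of 33.6, 31.0, 27.8 and 26.8 TPM. Neighbours in this group changed places between mice. *Jun* was above *Atf3* in 4 of 6 mice. *Ier2* (8.80 TPM) stood above *Nr4a1* (4.95 TPM) in 6 of 6 mice, although the mean log2 ratio of 0.78 was smaller than its SD of 0.85. *Egr1* (3.60 TPM) and *Egr2* (3.11 TPM) changed places with the diet, with *Egr1* above in the 3 LFD-fed mice and *Egr2* above in the 3 HFD-fed mice. In LFD replicate 1 this order was not resolved, since the RSEM intervals overlapped (0.73 to 1.24 TPM for *Egr1*, 0.62 to 2.07 TPM for *Egr2*). *Atf3* had the highest mean of the 10 in HFD-fed mice, 52.3 ± 31.4 TPM (SD, n = 3), and the fourth in LFD-fed mice, 9.66 ± 7.53 TPM (SD, n = 3), beside *Ier2* with 9.25 ± 6.05 TPM. *Fosb* (1.32 TPM) and *Nr4a3* (0.772 TPM) were the least abundant. The posterior SD that RSEM gives for a count was at most 1.35 reads for *Jun* and 0 for the 9 other genes.

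A wider list of 37 other immediate early genes gives the company of these 10. Of its 36 tested genes, 12 were higher and 2 lower at an unadjusted p under 0.05 by edgeR, where 3.86% and 6.62% of all genes were, and 0 were called. Their median log2 fold change was 0.65. In log2 CPM 15 lay higher and 2 lower without overlap, beside 6.72% and 9.23% of all genes, but in TPM only 1 lay higher and 1 lower, beside 1.65% and 11.6%. The lowest p among the higher genes was that of *Dusp6*, which encodes a phosphatase that switches off the kinase ERK. Its TPM values were 21.9, 39.6 and 44.7 on the high-fat and 9.46, 16.6 and 25.6 on the low-fat diet, with a log2 fold of 1.31 (SE 0.22, edgeR adjusted p = 0.170). The lowest p among the lower genes was that of *Per1*, a clock gene that cyclic AMP also induces. It had 9.10, 11.8 and 15.3 TPM in HFD-fed and 22.1, 28.9 and 39.2 TPM in LFD-fed mice, with a log2 fold of -1.15 (SE 0.19, edgeR adjusted p = 0.170), and did not overlap on either scale. The other lower gene was *Klf4*, named after its values were seen, a zinc finger gene of endothelial and epithelial cells with a log2 fold of -1.01 (SE 0.34, edgeR adjusted p = 0.382).

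Relatives of the 10 genes and the proteins that act before them were counted in the same way, beside 3.86% of all genes higher and 6.62% lower at an unadjusted p under 0.05 by edgeR. Among 9 other AP-1 genes, 1 was higher and 0 lower, with a median log2 fold of 0.27. In the paired fit 3 of these 9 were higher and 0 lower, where 8.75% of all genes were higher and 1548 of 17668 lower. *Batf2*, an AP-1 protein of immune cells, was the higher one (log2 fold change 1.68, SE 0.62, edgeR adjusted p = 0.415), and *Atf7*, a stress kinase target, had the lowest p of those below 0 (-0.44, SE 0.21, edgeR adjusted p = 0.544). Of the other EGR and NR4A genes and the EGR corepressors, 4 of 5 were tested, 0 had an unadjusted p under 0.05, and *Nr4a2* (0.47, SE 0.33, edgeR adjusted p = 0.707) and *Egr3* (-0.28, SE 0.64, edgeR adjusted p = 0.939) had the lowest p in each direction. Among 22 upstream kinases and transcription factors, which include ERK, serum response factor and CREB, 1 was higher and 0 lower, with a median of -0.12. The higher one was *Rps6ka1*, which encodes a ribosomal S6 kinase that ERK activates (0.90, SE 0.32, edgeR adjusted p = 0.406), and *Elk4*, a partner of serum response factor, had the lowest p of those below 0 (-0.36, SE 0.19, edgeR adjusted p = 0.575).

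**Figure D4:**
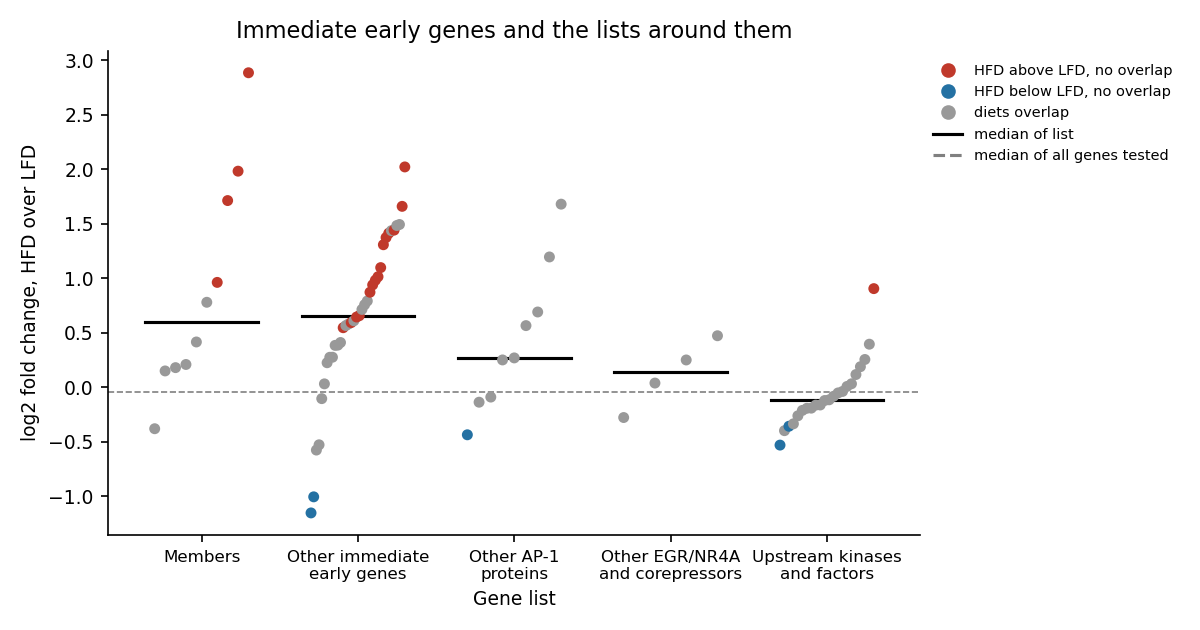
Log2 fold changes, HFD over LFD, of the 10 immediate early genes and of the tested genes of 4 lists around them (edgeR), coloured by whether the diets overlap in log2 CPM, with the median of each list and of all genes tested (-0.05). Medians are 0.60 for the 10 genes and 0.65 for the other immediate early genes, and in TPM 2 and 1 genes of these lists lie higher without overlap.

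The mean profile of the 10 genes over the 6 mice was closest to those of *Neurl3*, *Zscan29*, *Flt3*, *Epsti1* and *Gm13212*. The root mean square distances between log2 CPM standardised per gene were 0.071, 0.074, 0.079, 0.10 and 0.10. These 5 genes had log2 fold changes of 1.38, 0.36, 0.81, 1.11 and 0.84 and edgeR adjusted p-values of 0.475 to 0.681. All 5 were lowest in LFD replicate 1 in TPM, and each lay higher without overlap in log2 CPM. The choice of the 5 largely fixed both traits and they are no result. The mean profile itself was lowest in LFD replicate 1 (-1.88). It was 0.46 to 0.95 in the HFD-fed mice and 0.059 and -0.15 in LFD replicates 2 and 3. *Fos* and *Atf3* were at distances of 0.26 and 0.28 from this mean profile. *Ier2*, *Egr1*, *Nr4a3* and *Nr4a1* were at 0.77, 0.86, 1.09 and 1.26, so the mean does not stand for each of the 10 genes.

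Markers of several cell types moved with the diets and with single mice, and are given as counts without overlap. In log2 CPM 6.72% of all genes lay higher, 9.23% lay lower and 31.8% were lowest in LFD replicate 1. In TPM 1.65% of all genes lay higher and 11.6% lower. Among 11 tested T and NK cell markers, 9 lay higher in HFD-fed mice (6 in TPM), and all 11 were lowest in LFD replicate 1. These 11 genes were low, with 1 to 10 reads in the mouse of lowest count for each. The TPM values of the 12 listed T and NK cell markers summed to 15.4, 37.2 and 48.2 on the high-fat diet. On the low-fat diet they summed to 1.99, 14.7 and 13.1, by replicate number and without overlap, though HFD replicate 1 and LFD replicate 2 lay close. Of 12 macrophage markers, 3 lay higher (0 in TPM) and 1 lower (1 in TPM), and 10 were lowest in LFD replicate 1. Their summed level was 1864 to 3918 TPM in HFD-fed and 594 to 4373 TPM in LFD-fed mice. The markers that lay higher, named after their values were seen, were *Cd68*, *Fcgr1* and *Adgre1*. The marker that lay lower on both scales was *Cd163* (log2 fold -1.53, SE 0.39, edgeR adjusted p = 0.241). Of the 12 macrophage markers, 8 had a log2 fold above 0, with a median of 0.41. *Lyz2*, with 252 to 2755 TPM, took much of the sum.

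Of the 12 brown adipocyte markers, 2 lay higher in HFD-fed mice on both scales and 0 lower, with a median log2 fold of 1.35. These were *Ucp1*, the uncoupling protein of brown fat, and *Prdm16*, a regulator of brown adipocyte identity, also named after their values were seen. The list mixes genes of brown adipocytes with genes of adipocytes in general (*Pparg*, *Adipoq*, *Plin1* and *Fabp4*), and it did not move as a whole. Of the 12, 9 had a log2 fold above 0, with *Pparg* at 0.017. *Adipoq* (-1.19), *Plin1* (-0.78) and *Fabp4* (-0.35) lay below 0, and all 3 overlapped between the diets. *Ucp1* had 2728, 4021 and 796 TPM in HFD-fed and 443, 11.03 and 75.98 TPM in LFD-fed mice, by replicate number (log2 fold 3.67, SE 1.56, edgeR adjusted p = 0.480). In the paired fit 7 of the 12 were higher at an unadjusted p under 0.05, where 8.75% of all genes were. For 10 endothelial markers, 1 lay higher (0 in TPM), with summed levels of 179 to 787 TPM in HFD-fed and 216 to 468 TPM in LFD-fed mice. Of the 12 muscle markers, 11 lay lower in HFD-fed mice on both scales. Red cell genes summed to 10187 to 18044 TPM in HFD-fed and 3279 to 15196 TPM in LFD-fed mice, and 1 of 6 lay higher. No marker of these lists was at 0 counts in any mouse. The part of these cells in the levels of the 10 genes was not tested.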

How the data were processed

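BAT of 3 HFD-fed and 3 LFD-fed mice was sequenced in single-end reads of 75 bases, with diets and replicate numbers taken from the labels. The authors trimmed reads with Trimmomatic 0.36 and deposited RSEM 1.3.0 expected counts, not normalized, with Ensembl 84 genes of GRCm38.p4. The deposited TPM values are scaled by RSEM for effective length to a fixed total, and the authors also deposited credibility intervals and posterior SDs. Whether counting used the strand is not given in the sources used here.

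Expected counts were rounded and tested in R 4.3.3 with edgeR 4.0.16 (quasi-likelihood test, TMM, edgeR's filter on low counts, Benjamini-Hochberg adjustment over 17668 genes), which all 10 genes passed. Intervals are 95%. Log2 CPM used a prior count of 2, and ratios an offset of 0.5 counts. No library within a diet repeated another (chi-square per degree of freedom 71.7 to 558). The tests were tried on simulated data.

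Replicate numbers from the labels were taken to pair the mice, since the deviations from the diet means correlated across genes in each of the 3 pairs (0.229 to 0.522; the 6 other pairs -0.528 to 0.0532); no source says that same-numbered mice were matched. Positions come from GENCODE M21 and promoters from RefSeq, matched by symbol. The gene list, the lists around it and the motifs were chosen with earlier results of these data known. Named were the 10 genes, the gene of lowest p in each direction of each list, and the 5 nearest profiles. Alternatives were DESeq2 1.42.0, RLE factors, no filter, at least 10 counts in every mouse, the replicate block, no mitochondrially encoded genes, TPM, a prior count of 0.5, no normalization factors, and each mouse left out. A left-out mouse leaves 2 of a diet.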

Additional observations from a re-analysis of the deposited data

How the results depend on the processing

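DESeq2 with default settings called 2 of the 10 genes (*Atf3* and *Egr2*) and 412 genes in all, where edgeR called 0 of each; the cause was not tested. Blocking on the replicate number also gave 0 calls in edgeR at these thresholds, and among the 10 genes the pairing moved only *Atf3* past an adjusted p under 0.05, with 184 genes in all there in place of 0. In TPM 2 of the 10 genes did not overlap between the diets, in place of 4. TPM moved the median difference of all genes to -0.18 on the log2 scale, and 292 genes lay higher and 2046 lower without overlap, where log2 CPM had 1188 and 1630. Differences in log2(TPM + 1) turned to -0.034 for *Fosb*, -0.0096 for *Ier2* and -0.030 for *Nr4a3*. Leaving out 1 mouse gave a median log2 fold change of the 10 genes of 0.28 to 1.03, 0 to 0 calls, 3 to 5 genes at an unadjusted p under 0.05, and values of -0.11 to 0.79 for *Fosb*, -0.028 to 0.55 for *Ier2*, -0.11 to 0.44 for *Nr4a1* and -0.0032 to 0.39 for *Nr4a3*. *Atf3* stayed between 2.42 and 3.22, *Fos* between 1.57 and 2.39, *Egr2* between 1.46 and 2.15 and *Jun* between 0.69 and 1.303, while *Junb* ranged from 0.26 to 1.60 and *Egr1* from -0.77 to -0.13. CPM without TMM factors, added after the data were seen, left 3 genes without overlap (*Atf3*, *Fos* and *Egr2*), while *Jun* overlapped. *Fosb*, with 3 reads in LFD replicate 1, could not be fitted with at least 10 counts in every mouse.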
